A study of Mus musculus with 2 samples.

Results

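The genes described here are 10 integrin genes of leukocytes: Itgam, Itgax, Itgal, Itga4, Itga5, Itga6 and Itgav, which encode α subunits, and Itgb1, Itgb2 and Itgb5, which encode β subunits. They were followed in mouse bone marrow-derived macrophages (BMDMs) with GRO-seq, a global run-on assay of nascent RNA in which polymerases already engaged on the DNA are allowed to extend their RNA in isolated nuclei with a labelled nucleotide, here Br-UTP. The members were all called transcripts to which the deposited annotation gives 1 of these 10 gene names, whatever their values. There were 62 such transcripts among 43122 in the control library and 51 among 51365 in the IL-4 library, from 10 of the 11054 genes named in either library. Both libraries came from bone marrow of wild-type mice aged 8 to 12 weeks, on a C57BL/6 background, whose cells were differentiated for 6 days in L929 supernatant, the source of M-CSF. The control library was made from cells left in that state. The IL-4 library was made from cells given 20 ng/ml interleukin-4 (IL-4) for 1 hr. Each condition had 1 library, prepared from run-on reactions done in duplicate and pooled, so no value below has a replicate and no test between conditions was possible. How many mice or cultures stood behind each library was not given in the sources used here.

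Integrins are heterodimeric adhesion receptors made of 1 α and 1 β subunit, and the β subunit largely sets which α partners are available. The β2 subunit pairs with αL (LFA-1), αM (Mac-1, CR3) and αX (CR4) only on leukocytes, where these receptors bind ICAMs and complement fragments and serve firm adhesion and phagocytosis. The β1 subunit pairs with α4 (VLA-4, receptor for VCAM-1 and fibronectin), α5 (the fibronectin receptor) and α6 (a laminin receptor), whereas αv pairs with β5 and other β subunits to bind vitronectin and, on phagocytes, the bridging protein MFG-E8. IL-4 acts through the transcription factor STAT6 and drives alternative macrophage polarization.

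The files give a score for each called transcript and no read counts, so the depth of both libraries is unknown. The scores were printed to 1 decimal, and the range that this rounding allows (0.05 to either side) is called the rounding range here; replicate error was not measurable. Over all transcripts the median score was 0.3 in the control library and 0.2 in the IL-4 library, with median lengths of 227 bp and 312 bp. The median log2 ratio of IL-4 over control over the 8879 genes with a value in both libraries was -0.38, and gene ratios were centred on it. Socs1, an early target of STAT6, had a highest score of 0.3 in control and 2.5 after IL-4, and Cish, another cytokine-induced feedback inhibitor, had 0 transcripts on its own strand in control and 6 after IL-4. Of the 8 macrophage markers examined, 8 carried own-strand transcripts in both libraries, and none of the markers of T cells, B cells, fibroblasts or dendritic cells carried any in either library. Of 5 neutrophil markers, 2 carried own-strand transcripts in control (Mpo and S100a8) and 2 after IL-4 (S100a8 and S100a9). In such bulk material a change in the number of cells of a type and a change in RNA per cell cannot be told apart.

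The first comparison asked which integrin genes had a higher or lower value after 1 hr of IL-4. Itgav was higher, and Itga4 and Itgb5 were lower, each by at least 2-fold relative to the median gene. Itga6 had a value only in control. The name Itgax was also past 2-fold and higher, but its transcripts did not lie in the Itgax gene, as described below. The value of a gene is here the top score of any transcript bearing its name. Of the 9 integrins with a value in both libraries, 2 were thus at least 2-fold higher and 2 at least 2-fold lower, against 8.06% and 8.62% of the 8879 genes. The median centred log2 ratio of the 9 was -0.43, with 6 below 0 and 3 above, where the median gene is at 0 by construction. Itgav stayed past 2-fold over its whole rounding range, and the range of Itga4 ended at 2-fold lower (-1.94 to -1).

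**Figure D1:**
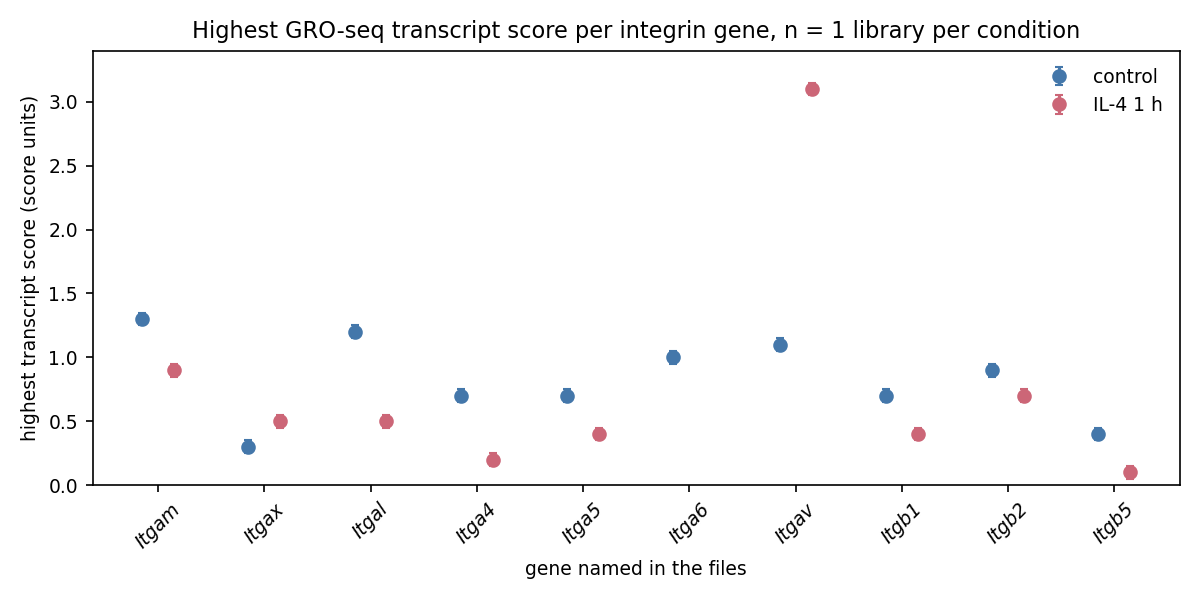
Highest score among the transcripts named for each integrin gene in the control library (blue) and the IL-4 library (red), in score units as deposited and before centring; bars show the rounding of 0.05 to either side, n = 1 library per condition. Itgav is the highest point at 3.1 after IL-4, and Itga6 has a control point only.

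Among the partners of β2, the value of Itgam (αM, the complement receptor 3 α chain) was 1.3 in control and 0.9 after IL-4, giving a centred log2 change of -0.15 (-0.29 to -0.02 by rounding). Both scores belonged to the same very short segment, with lengths of 40 bp and 44 bp, which the annotation places in a LINE-1 element 28285 bp into the gene. The Itgam gene (mm10 chr7:128062640-128118491, plus strand) held more signal after IL-4 when all of it was counted. It carried 11 own-strand transcripts in control and 15 after IL-4, covering 2483 bp and 4945 bp. An own-strand transcript is one that overlaps the gene, in the GENCODE M21 annotation, on the gene's strand. To compare levels by length, the score of each own-strand transcript was multiplied by the bases it covers in the gene, summed and divided by the gene's length in kb. By this level per kb Itgam stood at 8.37 in control and 16.9 after IL-4, giving a centred log2 change of 0.88 with a rounding range of 0.11 to 1.67. The direction for Itgam therefore differed between its highest score and its level per kb. The predicted gene Gm49368 overlaps Itgam on the same strand and shares all of these transcripts, so the 2 genes cannot be told apart here.

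Itgax (αX, CD11c, the complement receptor 4 α chain) lies downstream of Itgam on the same strand. The name Itgax was given to 5 control transcripts scoring at most 0.3 and to 8 IL-4 transcripts scoring at most 0.5. Its centred log2 ratio by name was 1.12 (0.74 to 1.52). None of these transcripts overlapped the Itgax gene (chr7:128129547-128150657). All 5 and all 8 lay in the last part of Itgam, from its intron 13 to its 3′ UTR, where the promoter of Itgax is the nearer one and the annotation names a segment by its nearest promoter. Within Itgax itself 0 own-strand transcripts were called in control and 0 after IL-4. The change under the name Itgax is therefore one of Itgam segments, and nascent transcription of Itgax was not detected by the caller in either library. The 250 bases before the Itgax start are shown because they hold the only match among the integrin promoters to TTCNNNNGAA, the spacing that STAT6 is known to bind; the match, in capitals, begins 127 bases before the start, and the sequence is RefSeq's for GRCm38.p6, plus strand, chr7:128129300-128129549.
Itgax: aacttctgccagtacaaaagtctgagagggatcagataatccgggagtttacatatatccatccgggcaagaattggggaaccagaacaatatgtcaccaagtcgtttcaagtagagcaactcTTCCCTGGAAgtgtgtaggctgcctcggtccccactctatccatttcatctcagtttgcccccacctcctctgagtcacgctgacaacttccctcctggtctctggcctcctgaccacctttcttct
The motif, which reads the same on both strands, occurs in 5.85% of 32851 RefSeq promoter windows of this length and in 1 of the 7 integrin windows available (Itgam, Itgax, Itga4, Itga5, Itgav, Itgb1 and Itgb5). The shorter spacing TTCNNNGAA, in 7.02% of all windows, had 0 matches in the 7.

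Itgal (αL, the LFA-1 α chain) had a highest named score of 1.2 in control and 0.5 after IL-4, giving a centred log2 change of -0.88 (-1.10 to -0.69). The same stretch of the gene gave both values, a 220-bp segment of control that the annotation puts in an LTR element and a 68-bp segment after IL-4 in intron 18. The other 3 own-strand transcripts of control, with scores of 0.3, 0.2 and 0.3, had no counterpart after IL-4. Itgal thus went from 4 own-strand transcripts to 1, and its level per kb from 11.4 to 0.87 (a centred log2 change of -3.83, with -4.11 to -3.54 allowed by rounding).

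Itgb2 (β2, CD18), the shared partner of these α chains, had the centred ratio nearest to 0 by its highest score among the 9. It was 0.9 in control and 0.7 after IL-4, both in a segment of about the same length in intron 6, 491 bp and 507 bp, for a centred log2 change of 0.02 (-0.17 to 0.20). It carried 11 own-strand segments in control and 6 after IL-4, over similar covered lengths of 2607 bp and 2318 bp. Its level per kb was 27.2 in the control library and 18.6 in the IL-4 library, a lower level by a centred log2 change of -0.68 (-1.14 to -0.24). In control none of the 11 transcripts began within 1 kb of the start, whereas after IL-4 a 578-bp transcript with a score of 0.2 began 83 bp downstream of it.

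Among the α partners of β1, Itga4 and Itga6 had few or no transcripts after IL-4 and Itga5 had more. Itga4 (α4, the VLA-4 α chain) had a highest named score of 0.7 in control and 0.2 after IL-4, giving a centred log2 change of -1.43 (-1.94 to -1.0). The control value came from a 52-bp segment of the 3′ UTR. With transcripts under 100 bp left out, the ratio was -0.74 and no longer 2-fold. The number of Itga4 transcripts does not rest on that segment: 7 were called on its strand in control, at scores from 0.1 to 0.7, and 1 after IL-4. The 1 that remained lay over exon 1, with a score of 0.4 over 235 bp in control and of 0.2 over 327 bp after IL-4, or -0.68 on the log2 scale once centred on the median pair. Beyond 1 kb from the start Itga4 carried 6 segments in control and 0 after IL-4, and its level per kb was 4.39 and 0.84 (centred log2 change -2.51, -3.19 to -1.87).

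Transcription also leaves many promoters in the opposite direction, and 3 of the 10 integrin genes, Itga4, Itgav and Itgb1, had an opposite-strand transcript at their start in control. Over Itga4 its score was 0.2 in control and no such transcript was called after IL-4. Over Itgav it was 0.2 in control and 0.1 after IL-4. Over Itgb1 it was 0.2 in control and 0.3 after IL-4. All of these scores are near the lowest that the files hold. How many of all genes have such a transcript was not computed, so the count of 3 of 10 has no share to stand beside. The promoter sequences of the 3 genes are shown because they carry this divergent signal. Capitals mark the bases covered by the opposite-strand transcript in control, which were 195 of 250 bases for Itga4, 109 for Itgav and 206 for Itgb1; the windows are the 250 bases before the start (RefSeq, GRCm38.p6, plus strand), at chr2:79255176-79255425 for Itga4, chr2:83724147-83724396 for Itgav and chr8:128685404-128685653 for Itgb1.
Itga4: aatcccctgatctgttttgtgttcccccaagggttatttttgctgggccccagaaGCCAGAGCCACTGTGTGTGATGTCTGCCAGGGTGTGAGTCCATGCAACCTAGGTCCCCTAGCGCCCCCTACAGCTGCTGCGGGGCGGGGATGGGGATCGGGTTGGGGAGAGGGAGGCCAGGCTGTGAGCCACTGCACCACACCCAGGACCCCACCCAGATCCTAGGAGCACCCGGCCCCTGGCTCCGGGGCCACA
Itgav: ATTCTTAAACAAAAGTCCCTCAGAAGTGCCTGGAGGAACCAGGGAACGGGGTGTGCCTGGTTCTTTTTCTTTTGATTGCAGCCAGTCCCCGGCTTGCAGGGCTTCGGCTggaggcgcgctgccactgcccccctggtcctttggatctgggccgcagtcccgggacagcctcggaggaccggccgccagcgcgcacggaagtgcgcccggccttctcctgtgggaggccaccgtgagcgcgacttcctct
Itgb1: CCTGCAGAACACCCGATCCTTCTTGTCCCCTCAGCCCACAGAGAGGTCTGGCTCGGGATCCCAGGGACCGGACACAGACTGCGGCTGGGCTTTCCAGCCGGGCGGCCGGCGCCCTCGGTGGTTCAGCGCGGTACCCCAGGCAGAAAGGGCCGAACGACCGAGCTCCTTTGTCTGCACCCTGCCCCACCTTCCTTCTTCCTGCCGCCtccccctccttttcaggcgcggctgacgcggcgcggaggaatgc
After IL-4 the covered bases were 0 for Itga4, 250 for Itgav and 215 for Itgb1. The windows held 6 CpG dinucleotides for Itga4, 18 for Itgav and 21 for Itgb1. The median of all 32851 windows was 6 (quartiles 2 and 16). Divergent transcripts were not limited to windows rich in CpG, and Itgb5, with 18, and Itga5, with 11, had none called. Itgam and Itgax, with 6 and 5, also had none.

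Itga6 (α6, a laminin receptor α chain) had transcripts in the control library only. There 10 own-strand transcripts were called, with scores from 0.1 to 1.0, of which 2 lay within 1 kb of the RefSeq start. The highest, 1.0, was a 36-bp segment of intron 1, and a 235-bp segment of intron 4 reached 0.7. After IL-4 no transcript was called on its strand and none carried its name, so no fold is given. The level per kb of Itga6 was 5.56 (4.49 to 6.63) in control.

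Itga5 (α5, the fibronectin receptor α chain) was lower by its highest score and higher by its level per kb. The score at its first exon was 0.7 in control, over 108 bp, and 0.4 after IL-4, over 755 bp, giving a centred log2 change of -0.43 (-0.72 to -0.15). Its own-strand transcripts numbered 5 in control and 8 after IL-4, and they covered 884 bp and 3125 bp. The level per kb was 12.9 in control and 25 after IL-4 (centred log2 change 0.82, 0.15 to 1.42). The segments of Itga5 were thus longer and mostly of lower score after IL-4, as were those of the whole library, and the part of this shift in the values of Itga5 was not tested.

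Itgb1 (β1, CD29) also differed in sign between both measures. Its value was 0.7 in control, in a 53-bp segment of a B3 SINE, and 0.4 after IL-4, in a 548-bp segment at the start, for a centred log2 change of -0.43 (-0.72 to -0.15). At the start itself the score was 0.3 in control and 0.4 after IL-4. It had 4 own-strand transcripts in control and 9 after IL-4, and beyond 1 kb from the start the numbers were 3 and 8. The level per kb was 6.16 and 11.6, giving a centred log2 change of 0.79 (0.24 to 1.33).

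Itgav (αv, the vitronectin receptor α chain) had the highest score of the 10 genes after IL-4. Its value was 1.1 in control and 3.1 after IL-4, giving a centred log2 change of 1.87 (1.79 to 1.96). Both scores came from overlapping segments of intron 2, 16779 bp into the gene for the control segment, of 79 bp for control (chr2:83741176-83741254) and of 112 bp for IL-4 (chr2:83741167-83741278). The annotation calls the second one a (T)n simple repeat and the first one plain intron. With simple repeats and low complexity sequence left out, only the IL-4 segment is dropped and the ratio of Itgav turns to -0.33. Its other overlapping segments differed little: 0.6 and 0.7 in the 5′ UTR, and 1.4 and 1.1 in intron 21. Both intron 21 segments are named for a neighbouring gene, Fam171b, and the control one is annotated as a (TTTG)n simple repeat. Itgav carried 4 own-strand segments in control and 10 after IL-4, covering 645 bp and 2963 bp. The level per kb was 5.70 (5.31 to 6.09) in control and 15.4 (13.6 to 17.2) after IL-4, giving a centred log2 change of 1.31 (1.03 to 1.57). Without the intron 2 segment in either library the level per kb was 4.65 and 11.2, giving a centred log2 change of 1.14. The promoter of Itgav was the only one of the 7 with GAGGAAGT, a sequence of the type bound by the myeloid factor PU.1, on the opposite strand 9 bases before the start. This sequence occurs on either strand in 2.44% of all windows.

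Itgb5 (β5, a partner of αv) had the most own-strand transcripts of the 10 genes in control and only its start segment after IL-4. Its value was 0.4 in control and 0.1 after IL-4, giving a centred log2 change of -1.62 with the wide rounding range of -2.79 to -0.84. Both scores came from the 5′ UTR segment at the start, 605 bp and 301 bp long. Across the gene (chr16:33829665-33949338), the longest of the 10, 15 own-strand transcripts were called in control, at scores from 0.1 to 0.6, and 1 after IL-4. Of the 15, 7 carried the name of a neighbouring gene, Umps. By name Itgb5 had 8 transcripts in control, fewer than the 10 of Itgb2. All 14 control transcripts beyond 1 kb from the start had no counterpart. The level per kb was 8.25 in control and 0.25 after IL-4, giving a centred log2 change of -5.16 (-6.40 to -4.30). Itgav and Itgb5, whose products pair, thus differed in opposite directions.

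**Figure D2:**
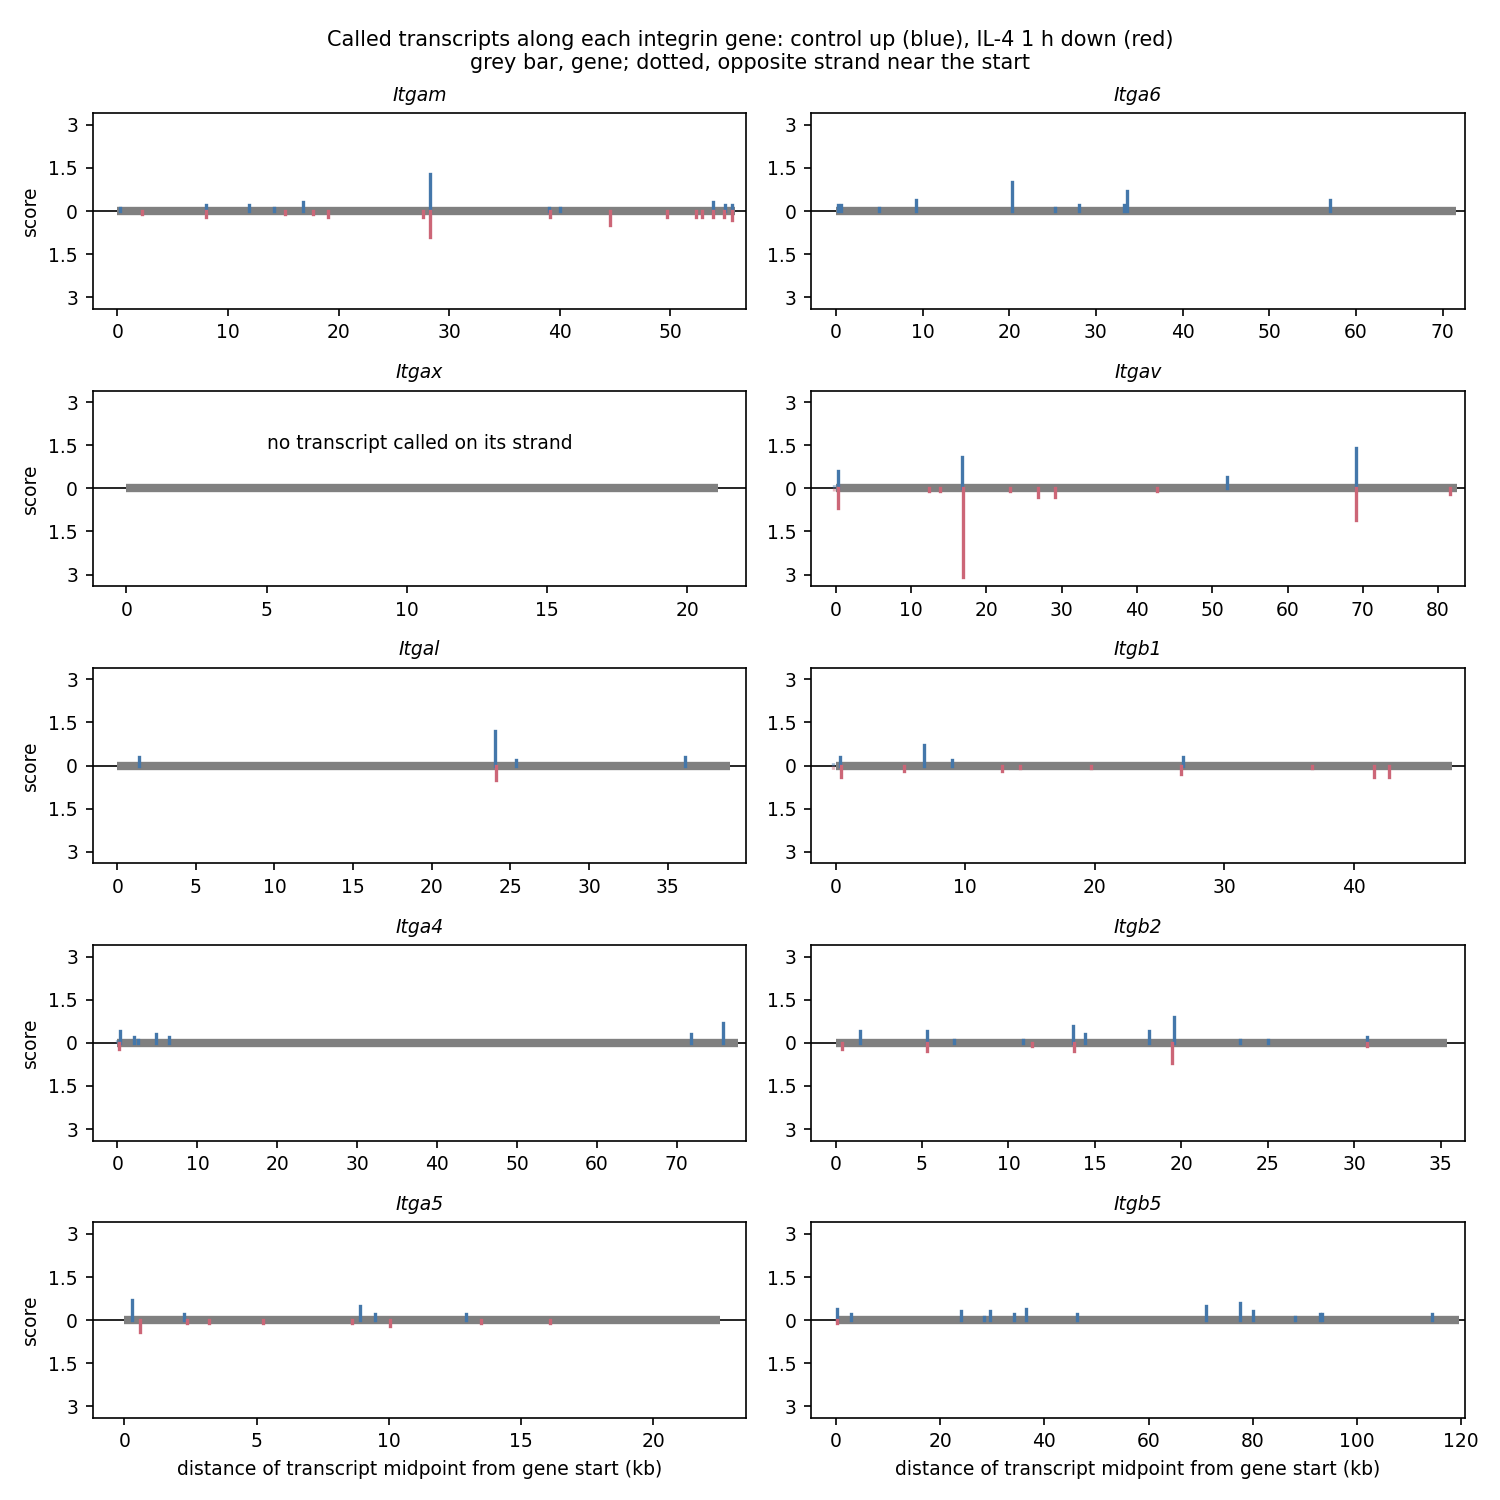
Called transcripts along each of the 10 integrin genes, placed by the distance of their midpoint from the gene start in kb (grey bar, gene), with control scores drawn upward in blue and IL-4 scores downward in red; dotted lines are opposite-strand transcripts at the start. Itgb5 and Itga4 keep only a transcript at the start after IL-4, Itga6 has none, Itgav, Itgb1 and Itga5 have more than in control, and Itgax has none in either library.

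The second comparison asked how the number of called transcripts in the integrin genes moved. Itgav and Itgb1 at least doubled, and Itgal, Itga4, Itga6 and Itgb5 were left with at most 1. The remaining members were Itgam (11 and 15), Itga5 (5 and 8) and Itgb2 (11 and 6). Of the 9 integrins with at least 4 own-strand transcripts in control, a minimum set after the values were seen, 2 had at least doubled, 4 had at most 0.5 of their number and the same 4 were at most at 1. Of the 2792 genes with as many, 9.81% had at least doubled, 18.2% had at most 0.5 and 5.44% were at most at 1. The median ratio over those genes was 1, with quartiles of 0.67 and 1.36. The minimum looked at control only, so a gene with fewer than 4 there could not enter, whatever it had after IL-4. That choice favours falls over rises, among the members as among all genes. By the highest own-strand score, which counts segments inside a gene whatever name they carry, Itgav was at least 2-fold higher (1.4 and 3.1, the first from the segment named for Fam171b) and Itga4 and Itgb5 were at least 2-fold lower, where 8.26% of 8158 genes were higher and 8.4% lower. By the level per kb, Itgav was at least 2-fold higher and Itgal, Itga4 and Itgb5 were at least 2-fold lower among the 8 integrins with a level in both libraries, where 16.6% of 8158 genes were higher and 16.7% lower. The median gene moved by 0.13 on this scale before centring.

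**Figure D3:**
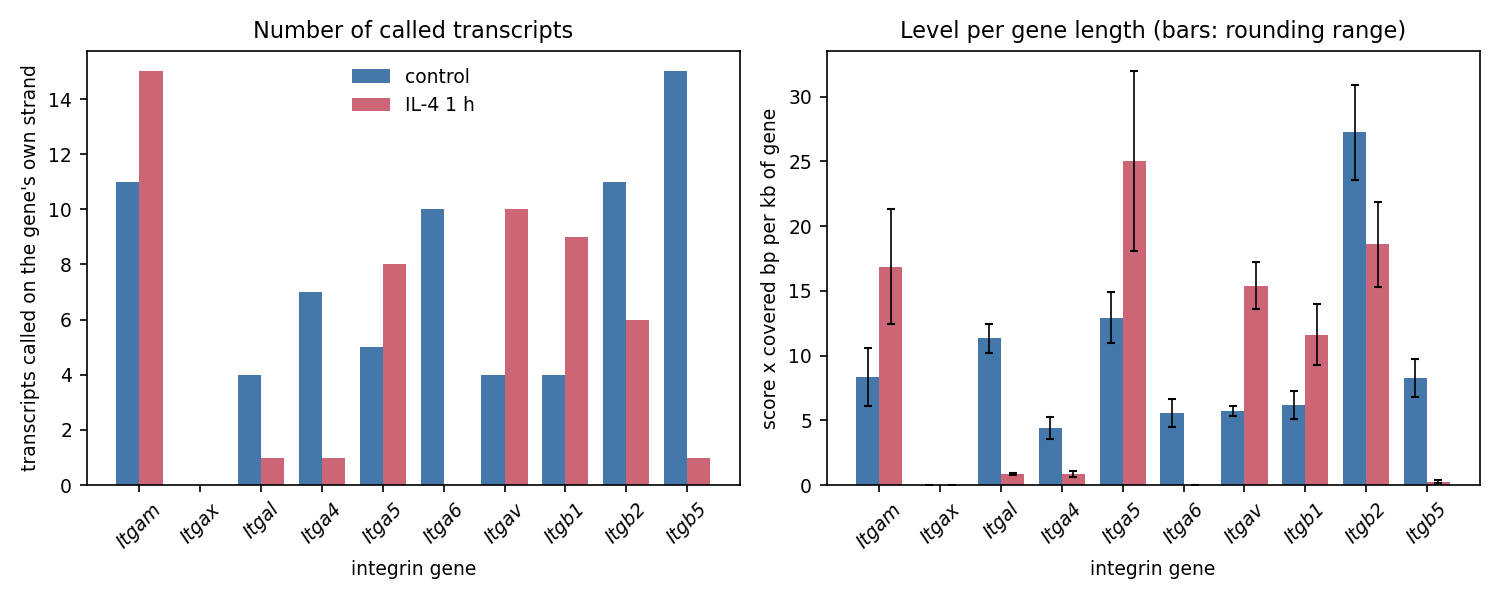
Number of called transcripts on each integrin gene's own strand (left) and level per kb, the score times covered bases per kb of gene (right), in control (blue) and after IL-4 (red); error bars on the right give the rounding range, n = 1 library per condition. Itgal, Itga4, Itga6 and Itgb5 drop to 1 or 0 transcripts, and Itgav moves from 5.70 to 15.4 per kb.

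Within a library the level per kb also ranks the members. In control Itgb2 was highest at 27.2, and its rounding range did not reach that of Itga5, at 12.9. From Itga5 down through Itgal, Itgam, Itgb5, Itgb1, Itgav and Itga6 to Itga4, at 4.39, the ranges of neighbours in the order overlapped. After IL-4 the order was Itga5 at 25, Itgb2 at 18.6, Itgam at 16.9, Itgav at 15.4 and Itgb1 at 11.6, and again the ranges of these neighbours overlapped. A gap followed, and Itgal at 0.87, Itga4 at 0.84 and Itgb5 at 0.25 stood below them. Itga6 and Itgax, with no transcript, came last.

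Most of the control transcripts in integrin genes had no counterpart in the IL-4 library. Of 71 own-strand control transcripts in the members, 20 (28.2%) overlapped an IL-4 transcript on the same strand by at least 1 bp, compared with 63.3% of all 38322 control transcripts on the strand of a gene. The share was also lower for members at scores under 0.3 (6 of 35, 17.1%, against 44.8%) and at higher scores (14 of 36, 38.9%, against 77.7%). It was highest in Itgav (3 of 4) and Itgam (6 of 11) and lowest in Itgb5 (1 of 15) and Itga6 (0 of 10). In the other direction 20 of the 51 IL-4 transcripts in members (39.2%) had a control counterpart, against 52.5% of all. Transcripts of a gene share their library and are not independent, so no test was made. Of the 20 overlapping pairs, 2 were at least 2-fold higher after IL-4, the Itgav segment of intron 2 and an Itgam segment that went from 0.1 to 0.2, and 1 was at least 2-fold lower, at the Itgb5 start. Over the 24251 pairs of all genes 10.7% were at least 2-fold higher and 9.41% lower. The median of the member pairs, centred on all pairs, was -0.07, with single pairs from -1.68 at the Itgb5 start to 1.82 in Itgav.

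By annotation class, the own-strand transcripts of the members were mostly intronic, 58 of 71 in control and 37 of 51 after IL-4. Exons held 6 and 9, 3′ UTRs 4 and 3, and 5′ UTRs 2 and 2. Their median length was 224 bp and 293 bp, close to the medians of all transcripts. Segments under 100 bp numbered 10 and 5, and segments annotated as simple repeats or low complexity 9 and 6. The class, short-segment and repeat counts were not computed over all transcripts, so they describe the members only.

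How far the direction of each gene depends on the way its value is made was examined under 10 definitions. Itgb5 was at least 2-fold lower in 9 of the 9 that gave a ratio, Itga4 in 8 of 9 and Itgal in 4 of 9. Itgav was at least 2-fold higher in 9 of 10, and the name Itgax in 5 of 8. Itgam, Itga5 and Itgb1 took both signs, from -0.53 to 0.88, from -0.81 to 0.82 and from -0.81 to 1.03, and Itgb2 ranged from -0.80 to 0.02.

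The rest of the integrin pathway was described from 4 lists. Of 16 other integrin genes, 3 carried own-strand transcripts in control (Itga1, Itga9 and Itgb3) and 2 after IL-4 (Itga1 and Itgb3), with own-strand scores of at most 0.4. By name the scores reached 20.2 and 20.7 for Itga9 and 3.8 and 3.0 for Itgb6, but Itga9 had 1 own-strand transcript in control and 0 after IL-4 and Itgb6 had 0 in both. By name 4 had a ratio, 1 was at least 2-fold higher (Itga2b, 0.2 and 0.4) and none lower, against 8.06% and 8.62% of all genes. The Itga2b gene itself held 0 own-strand transcripts in either library. Genes of these lists that were not past 2-fold over their whole rounding range by name are named after their values were seen. Of the 10 genes described above, 9 carried own-strand transcripts in control and 8 after IL-4.

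Of 25 activators and adaptors, which link the integrin tail to actin and switch the receptor to its active form, 19 had a ratio by name. The median of the 19 was -0.21. Of these, 2 were at least 2-fold higher (Ilk and Sharpin) and 2 lower (Parvg and Fyb), against 8.06% and 8.62% of all genes. Sharpin stood near the lowest scores, at 0.1 in control and 0.2 after IL-4 (1.38, 0.38 to 2.70). It had 1 own-strand transcript in control and 3 after IL-4. The Parvg gene held 4 own-strand transcripts in control, at most 0.3 in score, and 0 after IL-4. Its values by name, 0.4 in control and 0.1 after IL-4, thus did not come from own-strand transcripts in the gene. Ilk, the integrin-linked pseudokinase that binds β tails, was past 2-fold over its whole rounding range, at 0.3 in control and 0.8 after IL-4 (1.79, 1.48 to 2.14). By level per kb 4 were at least 2-fold higher and 2 lower of 19, where 16.6% and 16.7% of all genes were. The 4 were Fermt3, Ilk, Apbb1ip and Sharpin. Fermt3 (kindlin-3) and Apbb1ip (RIAM) activate integrins and Sharpin inhibits them. Fermt3 stood at 41.0 and 96.6 per kb, whereas its highest score by name gave a centred log2 change of -0.27, in the other direction. Apbb1ip stood at 16.1 and 52.9 per kb. Its values by name, 434.1 and 286.7 (-0.22), did not come from own-strand transcripts in the gene, whose highest scores were 2 and 2.1. The 2 that were lower were Parvb (β-parvin, 8 transcripts in control and 1 after IL-4) and Fyb (ADAP, 53 and 23).

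Of 20 kinases and signalling genes downstream of integrins, 17 had a ratio by name, with a median of -0.30. Of these, 0 were at least 2-fold higher and 2 lower, against 8.06% and 8.62% of all genes. The 2 were Syk, the tyrosine kinase that couples β2 integrins to the cytoskeleton, at 3.9 in control and 0.7 after IL-4 (-2.10, -2.22 to -1.98), and Rac2 at 3.6 and 1.0 (-1.47, -1.56 to -1.38). By level per kb 3 of 17 were at least 2-fold higher and 6 lower, where 16.6% and 16.7% of all genes were. The lower ones included Ptk2b, Syk, Lyn, Vav1 and Plcg2, and the higher ones were Fgr, Pik3cd and Csk. Lyn, a Src-family kinase, stood at 54.1 in control and 19.2 after IL-4 per kb. Csk, the kinase that phosphorylates the inhibitory tyrosine of Src-family kinases, stood at 20.1 in control and 128 after IL-4, with 8 and 17 own-strand transcripts, while its highest score was 0.6 in both libraries.

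Of 20 ligands and counter-receptors, 7 had a ratio by name, with a median of -0.11. Of these, 3 were at least 2-fold higher and 1 lower (Thbs1, 0.3 and 0.1), against 8.06% and 8.62% of all genes. Spp1 (osteopontin, bound by αv and α4 integrins) was at 0.2 and 1.0 (2.70, 2.30 to 3.19), and Adam9, a disintegrin metalloprotease, at 0.6 and 1.1 (1.25, 1.07 to 1.44). The third was Icam2 at 0.2 and 0.5 by name (1.70, 1.23 to 2.25), but the Icam2 gene held 0 own-strand transcripts in either library. By level per kb, of the 5 with a level in both libraries, Spp1 (7.69 and 22.4) and Adam9 (8.78 and 30.0) were again at least 2-fold higher, and Thbs1 and Lamc1 were lower, against the same shares of all genes. Icam1, the main ligand of αLβ2 and αMβ2, had 9 and 10 own-strand transcripts with highest scores of 5.5 and 2.9.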

How the data were processed

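Nuclei of control and IL-4 BMDMs were run on with Br-UTP, and the labelled RNA was enriched, made into small RNA libraries and sequenced. Reads were mapped by the authors to mm10 with BWA (0.7.10 in the submitters' processing notes), ENCODE blacklisted regions were removed, and transcripts were called per library with HOMER (4.2) in GRO-seq mode and annotated. SAMtools 0.1.19 is also listed. The deposited value is a score per transcript, rounded to 1 decimal, whose scaling is not given in the sources used here, hence the centring. A short repeat segment can take the highest score, and a segment called or missed changes a count. Gene positions came from GENCODE M21 and promoters from RefSeq (7 of 10 genes matched). Ratios, overlaps and figures were computed with Python 3.11.15, pandas 2.3.3, numpy 2.4.6 and matplotlib 3.10.9, checked on simulated data. Genes missing from 1 library had no ratio. Named genes were all 10 integrins, Socs1 and Cish, and from each other list those past 2-fold over the whole rounding range (at most 5 in each direction); exceptions are marked. The members, lists and definitions were chosen with earlier results of these data known. The alternatives tried were 8 planned and 1 added (segments under 100 bp left out), besides transcript numbers, overlapping pairs and Itgav without its intron 2 segment, all added after seeing the data.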

Additional observations from a re-analysis of the deposited data

How the results depend on the processing

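The count of integrins past 2-fold was 4 of 9. It became 2 of 7 with only scores of at least 0.3 (2 higher, 0 lower), where Itga4 and Itgb5 had no ratio. Without simple repeats and low complexity sequence it became 2 of 9 (0 higher, 2 lower). Without transcripts under 100 bp it became 2 of 8 (1 higher, 1 lower). The share of all genes past 2-fold was 16.7%, and 11.7%, 18.4% and 19.5% under these alternatives in turn. Itgav turned from 1.87 to -0.33 without simple repeats, an alternative that drops its highest IL-4 segment and keeps the control segment under it. The median of the integrins, -0.43, became -0.027 by score times length of named transcripts, 0.056 by own-strand score times length and -0.81 without centring. In the 4 other lists together 11 genes were past 2-fold. The count became 19 by score times length of named transcripts and 19 by own-strand score times length, where the share of all genes past 2-fold also rose from 16.7% to 34.1% and 33.3%. It became 17 of 47 without centring, where 30.3% of all genes were past 2-fold. With scores of at least 0.3 it became 6 of 39, where 11.7% of all genes were. With genes missing from 1 library set to 0.1, the lowest score above 0, Itga6 had a ratio of -3.0, which depends on that value. No paired analysis was possible because each condition had 1 library. Depth is unknown, so a segment that was not called may lie just under the caller's limit, and differences of 0.1 in score are within rounding.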

Other observations

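Nrp1, the gene before Itgb1 on its chromosome and the gene of the semaphorin and VEGF co-receptor neuropilin-1, carried 29 own-strand transcripts in control and 1 after IL-4, while Itgb1 itself carried 4 and 9. The other neighbours of the integrin genes with at least 4 transcripts in either library were Zfp385a beside Itga5, with 12 and 14, and Gm49368, which overlaps Itgam. C3, the complement component whose fragment iC3b is bound by αMβ2, had 0 own-strand transcripts in control and 6 after IL-4, with a highest score of 0.6 and a level of 13.9 per kb. These genes were picked after their values were seen, and each value comes from 1 library per condition.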
